A study of Mus musculus with 4 samples.

Results

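PI3K is the lipid kinase that couples cytokine and antigen receptors to the kinase Akt. Its catalytic subunit phosphorylates a membrane lipid while held in check by a regulatory subunit, the lipid recruits PDK1 and Akt to the membrane, phosphatases such as SHIP1 remove the signal, and mTOR acts both above and below Akt. In B cell progenitors the pathway opposes FOXO1, which Akt phosphorylates and keeps out of the nucleus. *Pik3r1* and *Pdpk1* are among the genes whose mRNA was predicted as a target of miR-195. For the predicted targets it measured by qPCR in *Ebf1*-/- cells, these genes included, the study reports lower mRNA with miR-195. Those qPCR values were not compared with the arrays here.

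Here 8 genes of this pathway were described: *Pik3r1*, *Pik3ca*, *Pik3cd*, *Pdpk1*, *Akt1*, *Akt2*, *Inpp5d* and *Mtor*. They were chosen by name, and all probes that the array's annotation gives to them were taken, 14 of 39429 probes. All 14 were well above background on all 4 arrays and were tested. In the study's mouse list of 705 predicted miR-195 targets, *Pik3r1* and *Pdpk1* (4 probes) are present and the other 6 genes (10 probes) are not.

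RNA was analysed on 4 single-dye Agilent mouse arrays. All 4 samples were fetal liver Lin- cells of mid-gestation *Ebf1*-/- mouse embryos from a cross of *Ebf1*+/- parents and so, by their label, carried the disrupted *Ebf1* gene in both groups. The cells carried a GFP retrovirus, either empty (EMPTY, 2 arrays) or with a segment around *Mir195* amplified from a human leukaemia line (miR-195, 2 arrays), and grew on OP9 stroma with SCF, IL-7 and Flt3-ligand, each at 10 ng/mL, for which the methods give 7 days as the usual time. Whether the cells were sorted for GFP before RNA extraction, and whether the 2 samples of a virus were separate cultures, is not given in the sources used here, so the p-values measure only the spread between these samples, which may be technical. All arrays lay on the same slide, EMPTY in the first positions and miR-195 in the last, so that position and virus cannot be told apart.

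The level of a probe is given below as the log2 signal minus the 75th percentile of its array, so that 0 is the signal of the probe at that percentile. Changes are compared between arrays for the same probe, and where probes are ordered by signal this sorts them by brightness and does not compare the expression of genes. Changes are the miR-195 mean minus the EMPTY mean, tested by limma over 23731 probes with Benjamini-Hochberg adjustment. No probe on the array reached an adjusted p of 0.05 (0% of those tested), while 1979 (8.34%) had an unadjusted p under 0.05. The smallest two-sided p that an exact permutation of these 4 arrays allows is 0.333.

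Of the marker genes of B progenitors, 9 of 10 were well above background on all arrays. *Cd79a*, a dim probe at -6.18 and -6.14 with EMPTY and -6.35 and -6.71 with miR-195, was so only on the EMPTY arrays. Besides *Cd79a*, *Dntt* was lower with miR-195 without overlap, while *Cd79b*, *Flt3* and *Rag1* were higher without overlap. The *Ebf1* probe was among those detected, at 1.85 to 2.03, which goes against what the *Ebf1*-/- label alone would give. Where this probe lies relative to the disruption is not given in the sources used here, so it does not check the genotype. The summed linear signal of the B progenitor markers was 42.1 and 41.2 with EMPTY and 42.7 and 48.1 with miR-195, without overlap. The brightest of these markers was *Flt3*, at 4.64 and 4.70 with EMPTY and 4.76 and 4.89 with miR-195, and it weighs most in this linear sum. *Il7r*, *Ebf1*, *Pax5*, *Vpreb1* and *Vpreb3* overlapped, so the order of the sum does not hold for the markers in general. All 5 haematopoietic markers were detected on every array. The arrays also carried OP9 stroma signal, with 7 of 10 stroma markers detected on all arrays and *Dcn* and *Lum* on none. Their summed signal was 9.92 and 10.8 on the EMPTY arrays, 9.51 on miR-195 array 1 and 17.6 on miR-195 array 2. T and NK cell markers, 9 of 10 detected on all arrays, summed to 21.9 and 17.0 with EMPTY and to 14.2 and 13.4 with miR-195, without overlap. Myeloid markers, 6 of 8 detected on all arrays with *S100a8* and *S100a9* on none, summed to 10.7 and 12.8 against 13.1 and 13.3, also without overlap. Mast cell and basophil markers summed to 0.284 and 0.308 against 0.216 and 0.158, again without overlap. Of these, *Cpa3* alone was detected on all arrays (1 of 6), and *Fcer1a*, *Gata2*, *Mcpt8* and *Ms4a2* on none. For single probes such an order was common, as 23.4% of all tested probes had both miR-195 arrays above both EMPTY arrays and 14.4% below. No such share was computed for sums of markers. Of the T and NK markers, *Bcl11b*, *Cd3g*, *Cd8a*, *Gata3* and *Thy1* were lower without overlap, while *Cd3e*, *Gzmb*, *Il2rb*, *Klrb1c* and *Ncr1* overlapped. Of the detected myeloid markers, *Mpo* and *Ctsg* were higher without overlap, while *Csf1r*, *Elane*, *Itgam* and *Lyz2* overlapped. The part of these cell types in the values below was not tested. Fewer cells of a type and less RNA per cell cannot be told apart in such bulk samples.

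The seed of miR-195, bases 2 to 8, is the stretch by which a microRNA finds its targets, and it is shared with other microRNAs that the same cells may hold. In the RefSeq set of mouse microRNAs, 10 of 1679 mature sequences have this seed. Some of them are shown to make plain which letters a target site has to pair with. The entry of miR-195a-5p lies at chr11:70235062-70235082 on the plus strand of GRCm38.p6. Capitals mark the seed, and the arrays carry no probe for any of these RNAs, so the dose of miR-195 in the cells was not measured on them.
miR-195a-5p: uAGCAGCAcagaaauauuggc
miR-16-5p: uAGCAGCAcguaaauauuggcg
miR-15a-5p: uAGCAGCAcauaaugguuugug
miR-15b-5p: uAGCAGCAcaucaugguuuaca
miR-497a-5p: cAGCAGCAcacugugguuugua

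Counted from base 1 with the seed included, miR-16-5p matches miR-195a-5p most closely of those shown, at 19 of its 21 positions. By the same count miR-497a-5p matches least of those shown, at 12, and miR-195b, which is not shown, matches at 18.

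None of the 8 genes changed past the threshold with miR-195, and only *Pik3r1* differed between the viruses by more than the arrays of a virus differed among themselves. For the other 13 probes, the larger of the differences between the arrays of one virus exceeded the difference between the viruses, as it did for 75.9% of all tested probes. The fold changes ran from 0.951 for 1 probe of *Akt2* to 1.19 for *Pik3r1*, and the lowest adjusted p among the 14 was 0.686. The standard errors of the log2 changes were 0.11 to 0.26, with a median of 0.12 against 0.15 over all probes.

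**Figure D1:**
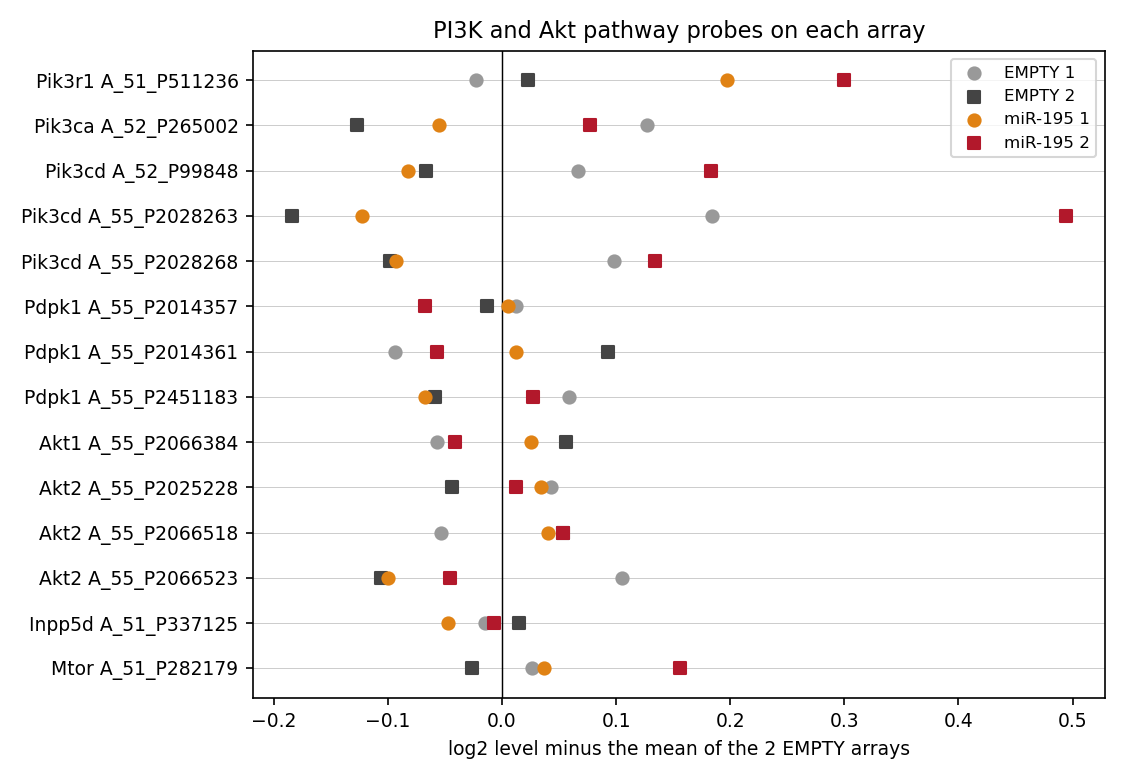
Level of each of the 14 probes on each of the 4 arrays, drawn as the log2 difference from the mean of the EMPTY arrays; circles are replicate 1 and squares replicate 2, grey for EMPTY and coloured for miR-195. The miR-195 arrays stand apart from both EMPTY arrays for *Pik3r1*. EMPTY array 1 and miR-195 array 2 are the higher arrays of their virus for *Pik3cd*, *Pik3ca*, *Mtor*, *Pdpk1* (A_55_P2451183) and *Akt2* (A_55_P2066523).

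*Pik3r1* encodes p85α, the regulatory subunit that stabilises the catalytic subunits and holds them inactive until a receptor recruits them, and it is a predicted miR-195 target. Its probe (A_51_P511236) stood at 0.37 and 0.42 with EMPTY and at 0.59 and 0.69 with miR-195. Both miR-195 arrays were thus above both EMPTY arrays. The gap between the viruses was 0.25 on the log2 scale (standard error, SE, 0.12), against differences of 0.045 between the EMPTY arrays and 0.10 between the miR-195 arrays. This is 1.19-fold, with a 95% interval from 0.958-fold to 1.47-fold, and it did not pass the test (adjusted p = 0.686 from limma). Falls below 0.958-fold in the signal of this probe thus lie outside the interval, which rests on limma's model of the error and makes no allowance for the number of probes. This bound holds only for the scaling and model used here. With the median of each array subtracted the change was 0.15 (SE 0.15), and with the replicate block the SE was 0.19. The lower end of the interval lies further down in both. The difference was positive in the 5 alternatives that alter the array values with all arrays kept, from 0.15 to 0.30, and the viruses did not overlap in any of these. A probe with both miR-195 arrays above both EMPTY arrays was common, as 23.4% of all tested probes had this order and 14.4% the opposite one.

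Among the catalytic subunits, *Pik3cd* encodes p110δ, the form that predominates in lymphocytes. It has 3 probes. Probe A_52_P99848 stood at 3.81 and 3.67 with EMPTY and at 3.66 and 3.92 with miR-195, a change of 0.050 (SE 0.15, limma adjusted p = 0.965). Probe A_55_P2028268 stood at 2.89 and 2.69 against 2.70 and 2.93, a change of 0.021 (SE 0.15). Probe A_55_P2028263 stood at 1.36 and 0.99 against 1.05 and 1.67, a change of 0.19 (SE 0.26), which is 1.14-fold with a 95% interval from 0.711-fold to 1.82-fold. All 3 probes had the same order of arrays within each virus, with EMPTY array 1 above EMPTY array 2 and miR-195 array 2 above miR-195 array 1, and the viruses overlapped in each. The spread was widest for A_55_P2028263, at 0.37 between the EMPTY arrays and 0.62 between the miR-195 arrays. Leaving out miR-195 array 2 turned its change to -0.12, and leaving out miR-195 array 1 raised it to 0.49, the widest such range of the 14 probes.

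The probe with this spread is printed because it reads the end of the coding sequence of *Pik3cd*. Read from base 1, its 60 bases hold no stop triplet before the last one, TAG at bases 58 to 60, which is in capitals.
Pik3cd A_55_P2028263: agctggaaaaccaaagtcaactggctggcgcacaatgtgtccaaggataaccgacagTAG

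*Pik3ca* encodes p110α, the catalytic subunit found in most tissues. Its single probe (A_52_P265002) stood at -1.60 and -1.86 with EMPTY and at -1.79 and -1.65 with miR-195, and the viruses overlapped. The change was 0.011 on the log2 scale (SE 0.15), with a 95% interval from 0.773-fold to 1.31-fold. As for *Pik3cd*, EMPTY array 1 and miR-195 array 2 were the higher arrays of their virus. This order was not particular to the catalytic subunits, as *Mtor*, *Pdpk1* (A_55_P2451183) and *Akt2* (A_55_P2066523) had it too. Over all tested probes, EMPTY array 2 and miR-195 array 1 were the closest pair, with a median absolute difference of 0.095. It was 0.147 between the EMPTY arrays and 0.194 between the miR-195 arrays.

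*Pdpk1* encodes PDK1, the kinase that phosphorylates the activation loop of Akt, and it is the other predicted target. Its 3 probes gave like values. Probe A_55_P2014357 stood at 0.28 and 0.26 with EMPTY and at 0.27 and 0.20 with miR-195, a change of -0.031 (SE 0.12, limma adjusted p = 0.972). The changes of A_55_P2014361 and A_55_P2451183 were -0.022 (SE 0.13) and -0.020 (SE 0.12). Levels were 2.07 and 2.25 against 2.17 and 2.10 for A_55_P2014361. They were 0.19 and 0.07 against 0.06 and 0.16 for A_55_P2451183. The viruses overlapped in all 3 probes. The lowest end of their 95% intervals was 0.778-fold, and the highest was 1.25-fold. Larger falls in the *Pdpk1* signal lie outside these intervals, while a fall or a rise of the size seen for *Pik3r1* lies inside them. These bounds too hold only for the scaling used here. With the median of each array subtracted, the changes of the 3 probes were -0.13, -0.12 and -0.12, each with an SE of 0.16.

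**Figure D2:**
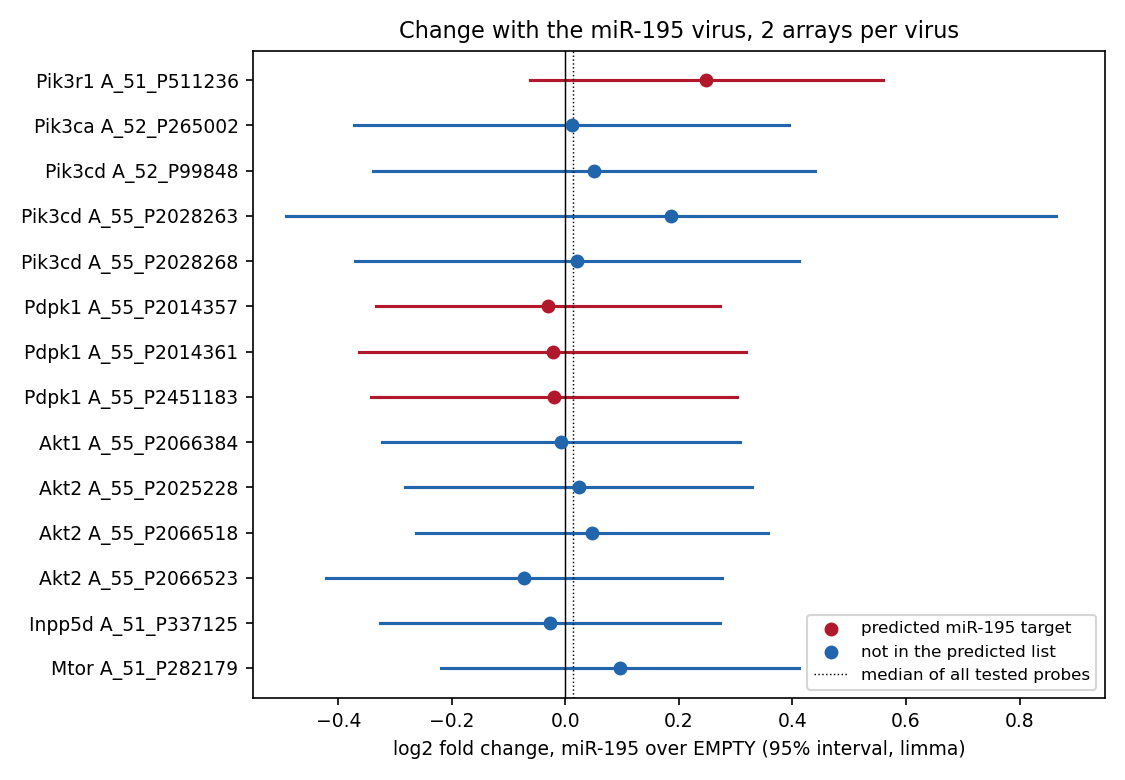
Log2 fold change of miR-195 over EMPTY for each of the 14 probes (points) with the 95% interval from limma (bars), from 2 arrays per virus; predicted targets are red, the other genes blue, and the dotted line is the median of all tested probes, 0.013. Every interval includes 0, and the point farthest to the right is *Pik3r1*.

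*Akt1* and *Akt2* encode the kinases that carry the signal on to FOXO1, GSK3 and the mTOR complexes. *Akt1* (A_55_P2066384) stood at 4.36 and 4.47 with EMPTY and at 4.44 and 4.38 with miR-195. The miR-195 arrays lay between the EMPTY arrays, and the change was -0.0079 (SE 0.12, 95% interval 0.799-fold to 1.24-fold). For *Akt2*, the probes differed in sign. A_55_P2025228 stood at 3.21 and 3.12 against 3.20 and 3.18, a change of 0.023 (SE 0.12). A_55_P2066518 stood at 3.09 and 3.20 against 3.19 and 3.20, a change of 0.047 (SE 0.12). These probes share a run of 53 of their 60 bases and thus read almost the same stretch, so they are not separate evidence. A_55_P2066523 stood at 0.02 and -0.19 against -0.19 and -0.13, a change of -0.073 (SE 0.13, 95% interval 0.747-fold to 1.21-fold). In all 3 the viruses overlapped, and the sign of each was within its error.

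The *Akt2* probe of the opposite sign is printed because it reads another part of the mRNA than the overlapping pair. It lacks the AATAAA of the polyadenylation signal, which both probes of the pair hold. On the strand printed on the array, 12.6% of all probes have AATAAA, and 4 of the 14 described here do.
Akt2 A_55_P2066523: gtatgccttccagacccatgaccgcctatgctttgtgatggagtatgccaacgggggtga

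*Inpp5d* encodes SHIP1, the blood cell phosphatase that removes the lipid made by PI3K. Its probe (A_51_P337125) was the steadiest of the 14, at 3.53 and 3.56 with EMPTY and at 3.50 and 3.54 with miR-195. The change was -0.027 (SE 0.11), and its 95% interval ran from 0.798-fold to 1.21-fold.

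*Mtor* encodes the kinase shared by the complexes mTORC1 and mTORC2, the latter of which phosphorylates Akt. Its probe (A_51_P282179) stood at -1.04 and -1.09 with EMPTY and at -1.03 and -0.91 with miR-195, so that both miR-195 arrays were above both EMPTY arrays by a narrow margin. The change was 0.096 (SE 0.12, limma adjusted p = 0.909), or 1.07-fold with a 95% interval from 0.859-fold to 1.33-fold. This order was lost in all 5 alternatives that alter the array values (normexp, quantile normalization, median scaling, the percentile over detected probes and the authors' table), and the sign turned when the median of each array was subtracted in place of the 75th percentile (-0.0015) and in the authors' table (-0.0048).

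Over the 14 probes, 8 were higher and 6 lower with miR-195, a share of 57.1% higher against 53.0% of all tested probes. The split follows the scaling: with the median of each array subtracted, 2 were higher and 12 lower, and 33.1% of all tested probes were higher, the median of all probes moving from 0.013 to -0.084. The miR-195 arrays lay wholly above the EMPTY arrays for 2 of the 14 (14.3%, against 23.4% of all probes) and wholly below for 0 of the 14 (against 14.4%). These counts also followed the processing, as did the shares of all tested probes above and below. With median scaling 1 was above and 3 below (all probes 14.0% and 25.6%). In the authors' table it was 1 and 2 (21.5% and 15.8%), and with normexp 1 and 1 (39.5% and 10.4%). Quantile normalization gave 1 and 0 (21.3% and 19.6%), as did the percentile over detected probes (26.2% and 13.1%). *Inpp5d* lay wholly below in 3 of these 5 alternatives. The median log2 change was 0.016, against 0.013 over all tested probes.

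Predicted targets and other genes both had medians near 0. The 4 probes of *Pik3r1* and *Pdpk1* had a median change of -0.021, with 1 higher and 3 lower, and the 10 probes of the genes outside the list had a median of 0.022, with 7 higher and 3 lower. Since 3 of the 4 belong to *Pdpk1*, the first median is that gene's. With the probes of each gene averaged, the medians were 0.11 for the 2 predicted genes and 0.0051 for the 6 others, so the order of the groups turned with this choice. All the changes but that of *Pik3r1* lay within 1 standard error of 0.

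**Figure D3:**
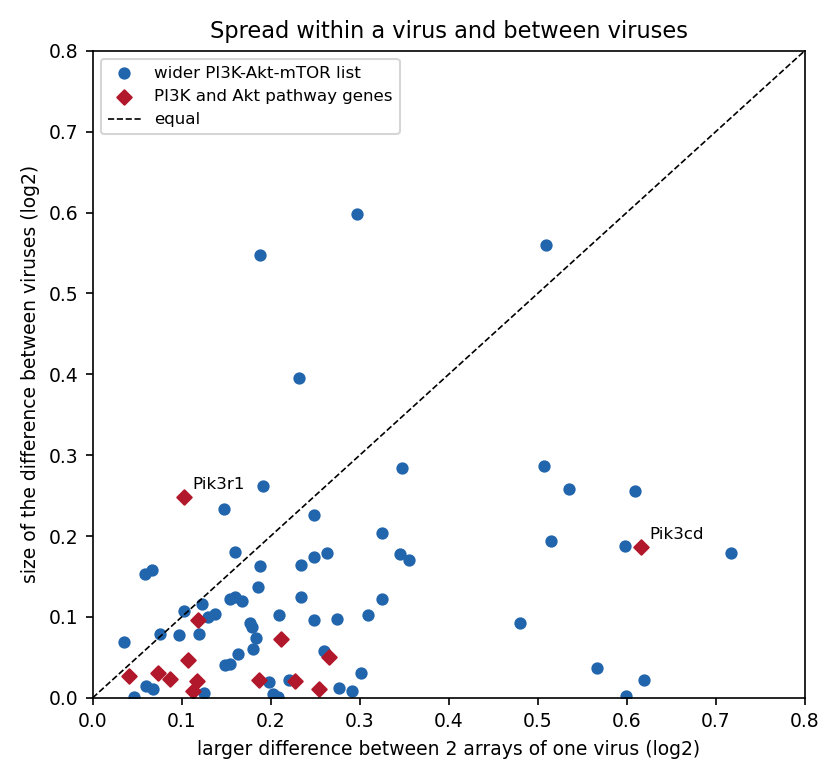
For each probe, the size of the log2 difference between the viruses (vertical) against the larger of the differences between the arrays of one virus (horizontal); diamonds are the 14 probes of the 8 genes, circles the 65 probes of the wider pathway list, and the dashed line marks equal values. Of the diamonds only *Pik3r1* lies above the line, and of the 14 the probe A_55_P2028263 of *Pik3cd* lies farthest to the right.

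The rest of the pathway was read from a list of 49 further genes, taken from the known pathway: other PI3K subunits, adaptors that recruit PI3K, phosphatases and other brakes, mTOR complexes and their output, and other kinases and substrates of Akt. Of these, 47 genes had a tested probe, 65 probes in all. No probe passed the threshold (lowest adjusted p = 0.530 from limma), and 4 had an unadjusted p under 0.05, or 6.15% against 8.34% of all probes. There were 41 higher and 24 lower, with a median of 0.020, and with the median of each array subtracted there were 21 higher and 44 lower. Both miR-195 arrays were above both EMPTY arrays for 11 probes (16.9%, against 23.4% of all tested probes) and below for 9 (13.8%, against 14.4%). For 53 of the 65 (81.5%, against 75.9%), the arrays of one virus differed by more than the viruses did.

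By role, all 7 probes of other catalytic subunits, from 5 genes, were higher (53.0% of all tested probes were), with a median of 0.12. This shared direction depends on the scaling. With the median of each array subtracted, all changes fall equally, the median of all tested probes going from 0.013 to -0.084. The changes of *Pik3c3* (0.012 and 0.092) and of *Pik3cg* probe A_51_P507832 (0.041) are smaller than this fall and would turn negative. Of the 5 probes of other regulatory subunits 4 were higher, with a median of 0.014. The 6 probes of adaptors had a median of 0.13, with 4 higher. Of the 20 probes of brakes, 12 were higher and 8 lower. Of the 14 probes of mTOR complexes and their output, 7 were higher and 7 lower, and for 5 of them (35.7%, against 14.4% of all tested probes) the miR-195 arrays lay wholly below the EMPTY arrays. Of the 13 probes of other kinases and substrates, 7 were higher.

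The largest changes in the list were upward and in dim probes. *Inpp4a*, a phosphatase that acts on a PI3K lipid product, had a probe (A_55_P2002727) at -3.67 and -3.37 with EMPTY and at -3.01 and -2.85 with miR-195, a change of 0.60 (SE 0.16, limma adjusted p = 0.530). *Pik3c2a*, a class II PI3K, stood at -3.53 and -3.47 against -3.20 and -2.69, a change of 0.56 (SE 0.20) that was 0.30 without miR-195 array 2. *Gab1*, an adaptor that recruits p85, stood at -6.30 and -6.48 against -5.92 and -5.77, a change of 0.55 (SE 0.14). The miR-195 arrays were above the EMPTY arrays in each. These probes lay at percentiles 28.1, 28.1 and 0.645 of the tested probes by mean signal. With all tested probes divided by signal into 4 equal bins, 29.0% had both miR-195 arrays above both EMPTY arrays in the dimmest bin, 30.3% in the next and 13.5% in the brightest, and the part of signal level in these changes was not tested.

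**Figure D4:**
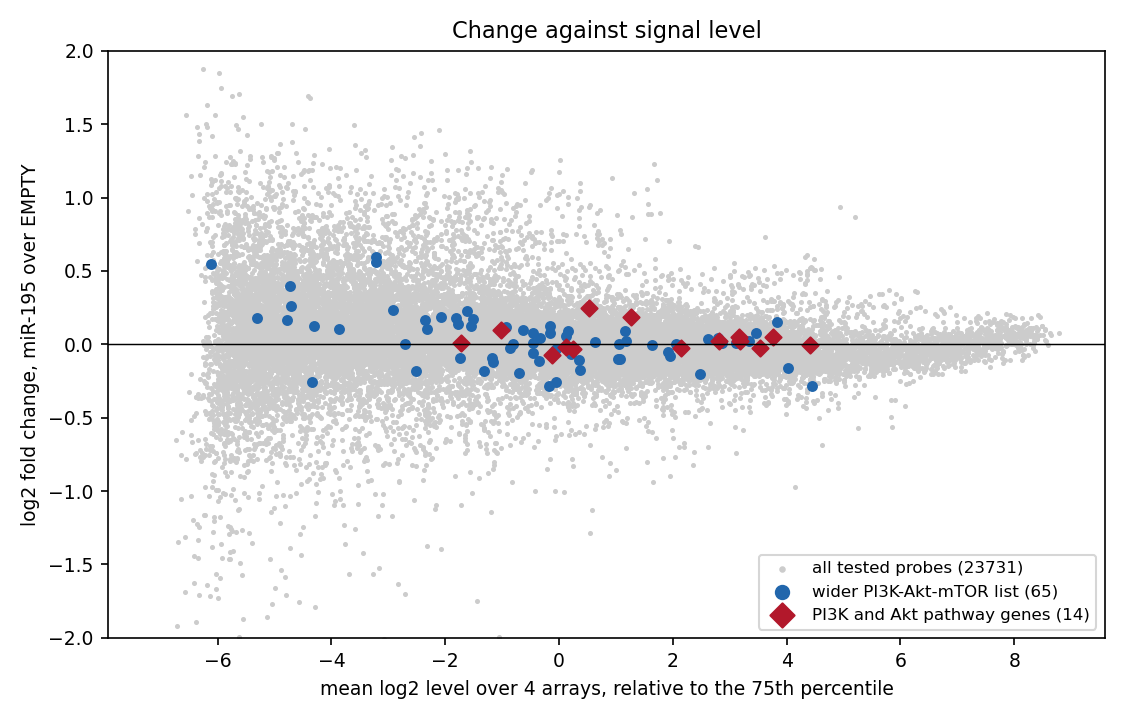
Log2 fold change of miR-195 over EMPTY (vertical) against the mean log2 level over the 4 arrays relative to the 75th percentile (horizontal); grey points are all 23731 tested probes, of which 80 lie beyond the plotted range of -2 to 2, circles the wider list and diamonds the 14 probes of the 8 genes. Of the diamonds, 12 lie above the median level of the tested probes and 2, those of *Pik3ca* and *Mtor*, below it, and the highest circles lie at low levels.

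Downward, the largest changes of the list were those of *Foxo1* and *Ddit4*. *Foxo1*, the transcription factor that Akt inactivates, stood at 0.23 and -0.28 with EMPTY and at -0.56 and -0.06 with miR-195 with probe A_51_P138044, a change of -0.29 (SE 0.26, limma adjusted p = 0.873). The viruses overlapped, the EMPTY arrays differed by 0.51, and the change was -0.033 without EMPTY array 1, -0.036 without miR-195 array 1 and about -0.54 without either of the others. The other tested *Foxo1* probe (A_52_P453884) stood at -0.35 and -0.87 against -1.04 and -0.57, a change of -0.19 (SE 0.25), also with overlap. These are mRNA values and do not measure FOXO1 protein or its phosphorylation. *Ddit4*, an inhibitor of mTORC1, stood at 4.63 and 4.57 against 4.49 and 4.14, a change of -0.28 (SE 0.16), with both miR-195 arrays below both EMPTY arrays. It was -0.11 without miR-195 array 2 and -0.46 without miR-195 array 1.

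Of the listed genes, 6 others are in the predicted target list, with 12 probes and a median of 0.057, of which 7 were higher and 5 lower. *Inpp5e*, a lipid phosphatase, had its largest change in the dimmest of its 3 probes, A_55_P2026930, at -5.05 and -4.82 against -4.54 on both miR-195 arrays, which is 0.40 (SE 0.14, limma adjusted p = 0.562). Its other probes changed by 0.10 and 0.079. The probes of *Ppp2r5c*, a regulatory subunit of the phosphatase PP2A, changed by -0.18, -0.069 and -0.0060, and in the first 2 of these the miR-195 arrays lay wholly below the EMPTY arrays. *Ppp2r1b*, the scaffold subunit of PP2A, changed by 0.16 (SE 0.14). *Rictor*, the defining subunit of mTORC2, changed by 0.12 (SE 0.13). *Sgk1*, a kinase related to Akt, changed by -0.18 (SE 0.32). The 3 probes of *Gsk3b*, a kinase that Akt inhibits, differed in sign, at -0.092, 0.041 and 0.074. None of these passed the test.

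The pattern of *Pik3r1* over the 4 arrays was compared with that of the 78 other tested probes of both lists, each centred on its mean. The closest was the other probe of *Inpp4a* (A_55_P2002732), with a root mean square difference of 0.055 on the log2 scale and levels of -3.10, -2.96, -2.79 and -2.80. *Pik3ip1*, which encodes a membrane protein that binds and inhibits PI3K, followed at 0.063, with 3.78 and 3.73 with EMPTY and at 3.89 and 3.93 with miR-195. *Pik3r3*, which encodes another regulatory subunit, was the next at 0.069. The changes of these 3 probes were 0.23, 0.15 and 0.14, and with 4 arrays such likeness is a description.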

How the data were processed

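The 4 samples were assigned to EMPTY and miR-195 by their titles. For each spot the authors deposited the intensity from Agilent Feature Extraction (version 11.5.1.1 in the submitters' processing notes, 9.1.3.1 in the file headers), with background and spatial trend subtracted and a small surrogate value at dim spots. A table of log2 values, which the authors normalized in GeneSpring to each array's 75th percentile, was deposited too. No genome build is given in the sources used here. On each array 43020 of 44397 spots were not controls, 0 were saturated, and 21 to 65 were outliers and left out. Local background had a median of 38 or 39, against a 75th percentile of 902 to 1127 for the signal. About 100 ng of RNA was labelled per sample.

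Log2 intensities were averaged per probe, and the 75th percentile over 39429 probes was subtracted. A probe was tested if both arrays of either virus had it well above background, which 23823 did, and 92 of these were dropped for an outlier spot. The authors' values were centred likewise, without centring of genes, and correlated with these at r = 0.998 on each array. Their columns' medians were -4.45, -4.42, -4.41 and -4.29. The log2 ratios of both correlated at r = 0.818 over all probes. Probes were compared in R 4.3.3 with limma 3.58.1 (lmFit, then eBayes), two-sided, with Benjamini-Hochberg adjustment and a threshold of 0.05. Files were read with data.table (version 1.17.8). The fit was tested on simulated data, with 250 changed probes of each size over 5 rounds. Of changes of 0.25 or 0.5 on the log2 scale, 0% were called. At sizes of 1 and 2 the shares were 25.6% and 95.6%. A lack of calls thus does not show that changes as small as 0.5 are absent. Gene symbols were those of the array, with 26055 probes matched by accession to the GRCm38.p6 annotation. Mature microRNAs are those of RefSeq, and probe sequences those of the array files. The number of arrays limits the precision.

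The genes and lists were chosen with earlier results of these data known. Besides the 8 genes, the text names the 6 probes of the wider list with the largest change among those well above background on all arrays, 1 per gene, the genes of the list predicted as targets, the 3 genes nearest to *Pik3r1* in pattern, genes whose probes differ in sign, and *Ebf1*. Some genes of the pathway are not reported here. The alternatives were normexp with an offset of 50, quantile normalization, median scaling, the 75th percentile over detected probes, the authors' table, a looser filter, a stricter one and none, a robust eBayes with a trend, a replicate block, leaving out each array, gene means over probes, and the methods' t-test on ratios of arrays with the same number. After seeing the data, a crossed pairing was added.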

Additional observations from a re-analysis of the deposited data

How the results depend on the processing

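None of the 14 probes of the 8 genes, nor any of the 17 named probes of the wider list, passed the threshold under any of 14 alternatives. Of these, 5 (the filters, the eBayes trend and the replicate block) leave each log2 change as it is. Under the other 9, 231 of 279 values kept their sign and 48 changed it while called in neither setting. With an array left out, the lone sample of its virus is assumed to vary like the other virus. The count of probes called on the array, 0 as reported, was 3 with the median of each array subtracted, 5 with the replicate block, 0 with the methods' t-test after adjustment (1134 before), and 0 to 904 with an array left out, 904 being the count without miR-195 array 1 and 3 that without miR-195 array 2. Arrays with the same number deviated in slightly opposite directions (r = -0.101 over 23731 probes), so the numbers were not taken to pair them, and the crossed pairing, chosen after seeing the data, gave 0 calls.

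With the median of each array subtracted, 2 of the 14 probes were higher and 12 lower, the medians were -0.12 for the predicted targets and -0.076 for the others, and the wider list had 21 higher and 44 lower. Both miR-195 arrays then lay above both EMPTY arrays for 3329 probes and below for 6066. The number above was 9365 with normexp and 13877 without a filter. With an array left out, which makes such an order more frequent, 8113 to 9513 were above and 5819 to 9057 below. With each gene's probes averaged, the median of the predicted targets was 0.11.

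Single changes whose sign turned were small. With the median of each array subtracted they were -0.074 (A_55_P2025228) and -0.051 (A_55_P2066518) for *Akt2*, -0.0015 for *Mtor*, -0.087 for *Pik3ca*, -0.047 (A_52_P99848) and -0.077 (A_55_P2028268) for *Pik3cd*, -0.057 and -0.024 for 2 probes of *Gsk3b* and -0.019 for *Inpp5e* (A_66_P119191). Under quantile normalization they were 0.024 for *Akt1*, 0.0062 for *Pdpk1* (A_55_P2014361), -0.056 for *Pik3ca* and 0.0012 for *Ppp2r5c* (A_52_P27332). With the percentile over detected probes they were 0.013 for *Akt1*, 0.00094 for *Pdpk1* (A_55_P2451183) and 0.015 for *Ppp2r5c*. With normexp they were 0.010 for *Akt1*, 0.011 for *Pdpk1* (A_55_P2451183) and -0.0057 for *Pik3cd* (A_55_P2028268). In the authors' table they were -0.0048 for *Mtor* and -0.035 for *Pik3cd* (A_55_P2028268). The causes were not tested.

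With an array left out, the ranges were -0.064 to 0.049 for *Akt1*, -0.020 to 0.067, -0.0065 to 0.10 and -0.18 to 0.033 for *Akt2* (probes in the order of the report), and -0.12 to 0.14 for *Pik3ca*. They were -0.067 to 0.0056, -0.12 to 0.071 and -0.079 to 0.038 for *Pdpk1*, and -0.082 to 0.18, -0.093 to 0.13 and -0.12 to 0.49 for A_52_P99848, A_55_P2028268 and A_55_P2028263 of *Pik3cd*. They were -0.33 to 0.15, -0.034 to 0.12 and -0.018 to 0.17 for *Gsk3b*, -0.052 to 0.26 for *Inpp5e* (A_55_P2032770), -0.068 to 0.057 for *Ppp2r5c* (A_52_P27332) and -0.54 to 0.18 for *Sgk1*. *Pik3r1* kept its sign in all of these, from 0.20 to 0.30.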
